A study of Mus musculus with 6 samples.

Results

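The stefin protease inhibitor cluster is a group of near-identical genes on mouse chromosome 16, and 9 of the 27376 gene names on the array, with 9 of its 41174 non-control probes, belong to it here. The rule took the 4 probes whose gene name begins with Stfa (Stfa1, Stfa2, Stfa3 and Stfa2l1) and the 5 clone-named probes placed in a window of 400 kb around them. These 5 are now called Csta2, Cstdc3, Cstdc4, Cstdc5 and Gm10092. The genes were selected on the difference in signal between Dhtkd1 null and wild-type samples in these same arrays. Their differences are therefore given as a description, with no test, and support nothing.

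Spinal cord RNA came from 3 Dhtkd1 null and 3 wild-type samples of male C57BL/6 mice, aged 8 weeks and kept free of specific pathogens, each on its own single-dye (Cy3) Agilent array. Dhtkd1 encodes a mitochondrial enzyme subunit of lysine and tryptophan degradation, and the comparison asks which spinal cord transcripts differ without it. The labels do not state which part of Dhtkd1 was deleted, in which cells, or whether each replicate is a separate animal, so any p-value measures only the spread between these samples. Null replicates 1, 2 and 3 and wild-type replicate 2 were on slide 1, and wild-type replicates 1 and 3 were on slide 2, so values from slide 1 alone are given beside the pooled ones.

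Stefins are small cystatins that stay inside the cell and bind the active site of papain-like cysteine proteases, such as the lysosomal cathepsins, which blocks them. In mice the stefin A genes have multiplied into a cluster on chromosome 16, and several of its members are known for strong expression in neutrophils and their precursors in bone marrow. Stefin A is also known in the epidermis. A whole tissue sample such as spinal cord also contains blood cells of its vessels and membranes.

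Each member had a single probe of 60 bases with 1 spot, and many of these probes share long runs of sequence with another, which bears on how far the genes can be told apart. The probe sequences are from the scanner files, 5′ to 3′, with capitals for the longest run shared with another probe of the cluster or of Csta1. Csta1 is a stefin A gene beside the cluster that the rule left out because of its name. The positions below are on mm9.
Stfa1: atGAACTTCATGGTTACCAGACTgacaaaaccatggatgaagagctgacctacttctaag
Cstdc4: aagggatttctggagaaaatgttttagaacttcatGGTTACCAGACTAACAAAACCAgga
Stfa3: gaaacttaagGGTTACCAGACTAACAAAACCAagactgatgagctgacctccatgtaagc
Stfa2: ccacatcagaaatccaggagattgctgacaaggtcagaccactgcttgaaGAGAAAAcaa
Cstdc5: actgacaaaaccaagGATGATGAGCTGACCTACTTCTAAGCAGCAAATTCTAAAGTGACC
Csta1: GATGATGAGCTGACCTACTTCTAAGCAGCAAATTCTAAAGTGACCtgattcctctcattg
Stfa2l1: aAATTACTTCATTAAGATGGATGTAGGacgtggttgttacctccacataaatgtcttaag
Gm10092: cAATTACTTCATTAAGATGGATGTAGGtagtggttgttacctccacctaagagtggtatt

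The Cstdc5 probe (chr16:36359525-36359584, minus strand) and the Csta1 probe (chr16:36122294-36122353, minus strand) share 45 bases without a break. The Stfa2l1 probe (chr16:36160118-36161876, plus strand) and the Gm10092 probe (chr16:36136075-36137745, plus strand) share 26. The Csta2 probe, whose sequence is not shown, shares 25 bases with the Csta1 probe and 25 with the Cstdc5 probe. Cstdc4 (chr16:36188043-36188102, plus strand) shares 22 bases with Stfa3 (chr16:36450693-36450752, minus strand) and 21 with Stfa1 (chr16:36285323-36285382, plus strand). In the best local alignment the Stfa1 and Cstdc5 probes matched at 38 of 40 bases. The Stfa2 probe (chr16:36405290-36408367, minus strand) had the least in common with the others, with a longest shared run of 7 bases, and its 60 bases spread over 3078 bases of genome. The accessions in the files list transcripts of both Stfa1 and Cstdc5 for the Stfa1 probe, of both Csta1 and Cstdc5 for the Csta1 probe, and of both Stfa2l1 and Stfa2 for the Stfa2l1 probe. Signal at those 3 probes is uncertain as to gene, and how much of any probe's signal came from a related transcript was not tested.

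All cluster probes were dim. Their mean signal lay at a percentile between 8.78 and 39.4 among the probes of an array, with a median of 32.1. Below, a signal is given as a percentage of the array's 75th percentile, and the lowest signal called well above background lay between 0.743% and 0.942% on the 6 arrays. Well above background on at least 3 arrays, the filter applied here, were 8 of the 9 probes, all but Cstdc3. The 8 were above background on all 3 null arrays, and 5 of them on all 6 arrays. In bulk tissue, fewer cells of a type and less RNA per cell cannot be told apart.

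Stfa1, which encodes stefin A1, had a signal of 6.92%, 11.4% and 9.08% in Dhtkd1 null replicates 1, 2 and 3, against 3.09%, 1.09% and 0.665% in wild-type replicates 1, 2 and 3. Every null value exceeded every wild-type value, and the wild-type samples were far apart from each other, over a range of 2.22 on the log2 scale. The mean log2 signal was -3.48 ± 0.36 in null and -6.26 ± 1.13 in wild-type samples (SD, n = 3 each), a log2 difference of 2.77 (SE 0.57), or 6.84-fold, which had the greatest size among the 8 detected members. On slide 1 alone the difference was 3.04. Wild-type replicate 3 was not well above background at this probe.

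Stfa2, for stefin A2, had a signal of 4.62%, 5.25% and 2.61% in the null replicates, against 1.81%, 0.888% and 0.850% in the wild-type replicates. The groups did not overlap, with null replicate 3 nearest to wild-type replicate 1. The log2 difference was 1.85 (SE 0.39), or 3.60-fold, and 2.17 on slide 1 alone. Wild-type replicate 3 was again not well above background.

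Stfa3, for stefin A3, had a signal of 5.05%, 5.91% and 5.14% in null replicates 1, 2 and 3, against 2.48%, 2.08% and 2.08% in wild-type replicates 1, 2 and 3. The 3 null samples spanned 0.23 on the log2 scale and the 3 wild-type samples 0.26, so both groups were narrow and did not overlap. The log2 difference was 1.28 (SE 0.11), or 2.43-fold, with 1.36 on slide 1 alone.

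Stfa2l1, a stefin A2-like gene, had a signal of 10.8%, 7.98% and 3.57% in null replicates 1, 2 and 3, against 4.76%, 2.80% and 1.24% in wild-type replicates 1, 2 and 3. Null replicate 3 was below wild-type replicate 1, so the groups overlapped. The log2 difference was 1.40 (SE 0.62), and 1.27 on slide 1 alone.

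**Figure D1:**
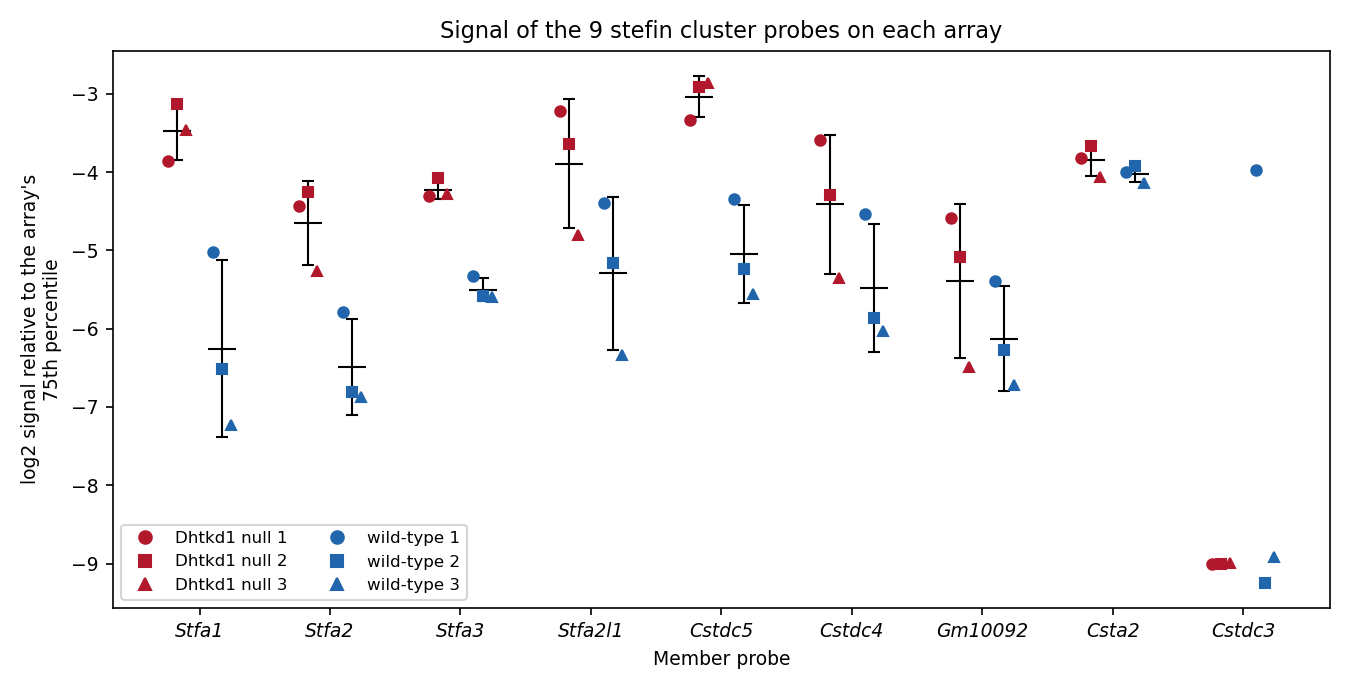
Log2 signal of each member probe relative to the 75th percentile of its array, with the 3 Dhtkd1 null arrays left of the 3 wild-type arrays. Black bars are group means with the SD (n = 3), left out for Cstdc3, where 1 wild-type array alone was well above background. Stfa1, Stfa2, Stfa3 and Cstdc5 have all null points above all wild-type points, and the points of different probes cannot be compared as levels.

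Cstdc5, a cystatin-domain gene named BC100530 in the files, had a signal of 9.89%, 13.3% and 13.8% in null replicates 1, 2 and 3, against 4.91%, 2.64% and 2.12% in wild-type replicates 1, 2 and 3. The groups did not overlap, and here null replicate 3 was the highest of its group. The log2 difference was 2.01 (SE 0.33), or 4.04-fold, and 2.21 on slide 1 alone.

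Cstdc4, another cystatin-domain gene (Gm5483 in the files), had 8.33%, 5.09% and 2.44% in null replicates 1, 2 and 3, against 4.31%, 1.71% and 1.53% in wild-type replicates 1, 2 and 3. Null replicate 3 lay below wild-type replicate 1. The log2 difference was 1.07 (SE 0.58), or 2.09-fold, and 1.46 on slide 1 alone.

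Gm10092, a predicted gene, had 4.16%, 2.94% and 1.12% in null replicates 1, 2 and 3, against 2.38%, 1.30% and 0.951% in wild-type replicates 1, 2 and 3. The order of the samples within each group was that of Stfa2l1, whose probe shares the 26-base run shown above. It was also that of Cstdc4, whose probe shares no run longer than 7 bases with that of Gm10092. The groups overlapped, and the log2 difference of 0.74 (SE 0.57) was close to its error.

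Csta2, a stefin A gene named 2010005H15Rik in the files (chr16:36257452-36257511, plus strand), varied less over the 6 arrays than the other detected members, although Stfa3 varied less among the null samples. It had 7.08%, 7.90% and 6.00% in null replicates 1, 2 and 3, against 6.24%, 6.60% and 5.69% in wild-type replicates 1, 2 and 3. The groups overlapped and the log2 difference was 0.17 (SE 0.12), or 1.13-fold, with 0.08 on slide 1 alone.

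Cstdc3, named Gm4758 in the files (chr16:36312661-36312720, plus strand), was called well above background on none of the null arrays and, among the 3 wild-type arrays, on 1. Wild-type replicate 1 had 6.38%, and the other wild-type arrays and the 3 null arrays had 0.165% to 0.208%. Those 5 low values are surrogates that the scanner software puts in place of signals not above background. No fold difference is given for this probe.

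Over the 9 probes, all null samples lay above all wild-type samples in 4, against 9.18% of the 21439 genes tested on the array. At least 2-fold higher in null samples were 6 of the 9, against 0.994% of all genes tested. The count was 5 with quantile normalization or in the authors' deposited table, 2 with normexp background correction and 4 to 7 when 1 sample was left out, the lowest without wild-type replicate 3. Because the cluster was selected on this contrast, these shares are set side by side and nothing is read from them. The median log2 difference over the 8 detected members was 1.34, against 0.02 over all genes tested. Across the whole array no gene passed an adjusted p of 0.05 by limma, the share called being 0%, while 5.76% of genes were higher and 3.25% lower in null samples at an unadjusted p under 0.05.

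The samples of each genotype differed among themselves in the same direction at most members. Wild-type replicate 1 was the highest wild-type sample in 8 of the 9 probes, and wild-type replicate 3 the lowest in 8. Null replicate 3 was the lowest null sample in 5 of the 8 probes above background, and Stfa1, Stfa3 and Cstdc5 were those where it was not. With each probe centred on its own mean over the 6 arrays, the mean of the 8 probes was 0.93, 0.94 and 0.25 in null replicates 1, 2 and 3, against -0.03, -0.85 and -1.24 in wild-type replicates 1, 2 and 3.

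Csta1, the stefin A gene 13.7 kb from the nearest member, had a signal of 19.4%, 22.3% and 19.8% in null replicates 1, 2 and 3, against 9.78%, 5.09% and 4.35% in wild-type replicates 1, 2 and 3. The groups did not overlap, and the log2 difference was 1.77 (SE 0.31), with 2.01 on slide 1 alone. This is the probe that shares 45 bases with that of Cstdc5. A second Csta1 probe (chr16:36125099-36125158, minus strand), whose longest shared run is 7 bases, was well above background on 2 null arrays and 1 wild-type array. It had 1.80%, 0.930% and 1.60% in null replicates 1, 2 and 3, against 0.556%, 1.05% and 0.423% in wild-type replicates 1, 2 and 3. Its groups overlapped, and its log2 difference of 1.15 (SE 0.42) was 0.41 on slide 1 alone.

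Probes around the cluster were read in the same way. Within 250 kb of the members, 11 detected probes belonged to 8 genes other than Csta1, and their log2 differences had a median of 0.08 and ran from -0.16 to 0.45, or from -0.55 to 0.32 on slide 1 alone. Casr, the calcium-sensing receptor, which lies in the window but carries its own gene name, was at the upper end with 0.45 and at -0.03 on slide 1 alone. Past the window, the nearest probe on one side was that of Ccdc58, 44.0 kb from the cluster, which differed by 0.06. On the other side it was that of Cd86, a costimulatory molecule, 153.75 kb from the cluster, which differed by 0.14. Of these 8 genes, Wdr5b alone had all null samples above all wild-type samples, with a log2 difference of 0.11. Just inside, the outermost members were Gm10092 at 0.74 and Stfa3 at 1.28.

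**Figure D2:**
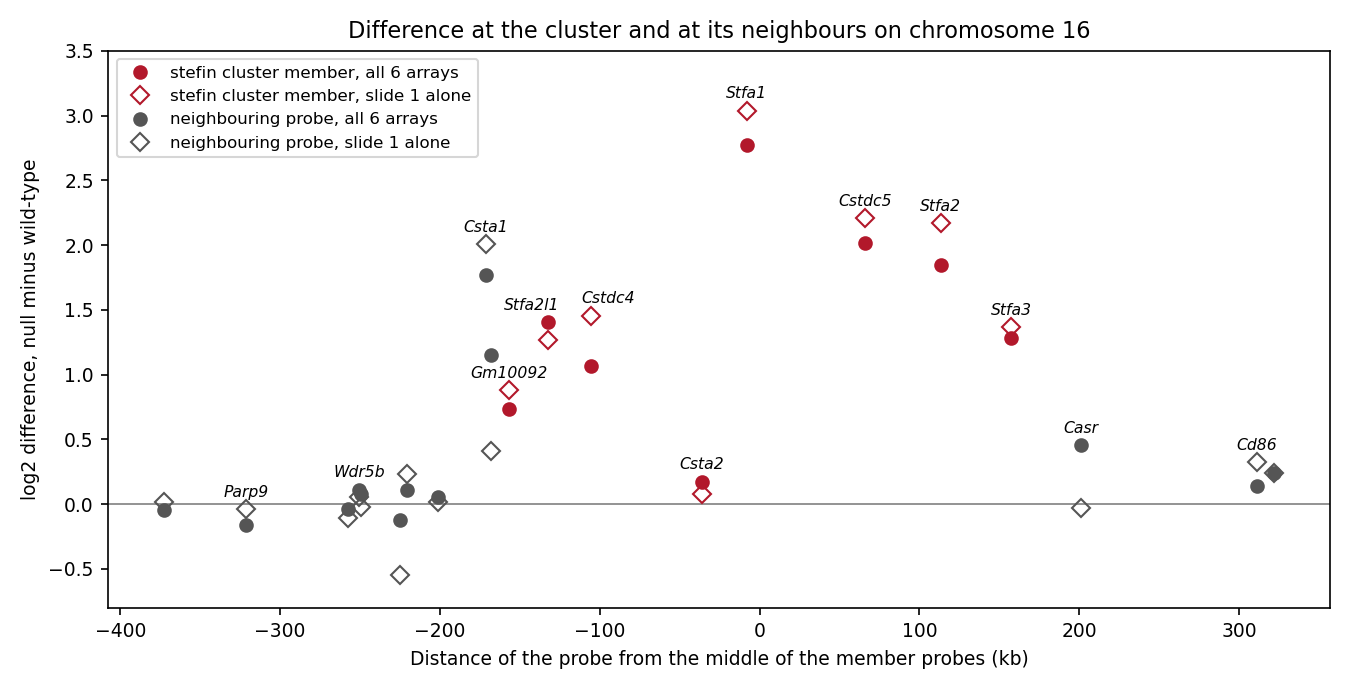
Log2 difference between Dhtkd1 null and wild-type samples (y axis) at each detected probe within 250 kb of the cluster, against its distance in kb from the middle of the member probes (x axis). Filled circles use all 6 arrays and open diamonds use slide 1 alone. Members reach from 0.17 (Csta2) to 2.77 (Stfa1), Csta1 stands among them, and the other neighbours lie between -0.16 and 0.45 over all 6 arrays.

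The genes whose profile over the 6 arrays was nearest to that of each stefin were sought among 15803 measured genes with ordinary symbols, the cluster members left out, by the root-mean-square difference of centred log2 signals. For Stfa1, whose own SD over the arrays was 1.55, they were Pisd-ps3 at 0.36, Lcn2 at 0.45, Csta1 at 0.61, Hcar2 at 0.62 and Ms4a3 at 0.72. Of the members themselves, Cstdc5 lay at 0.49 from Stfa1 and Stfa2 at 0.67. For Stfa2, with an SD of 1.04, they were Csta1 at 0.29, Il1f9 at 0.33, Il18rap at 0.34, Igh-VJ558 at 0.34 and Tex12 at 0.39. Stfa3, with an SD of 0.65, had closer matches in Cyp4f15 at 0.10, Ffar2 at 0.15, F2rl2 at 0.16, Fcgr4 at 0.19 and Tex12 at 0.20. The mean profile of the 8 detected members was nearest to Il1f9 at 0.11, Igh-VJ558 at 0.23, Gda at 0.27, Ceacam10 at 0.27 and Csta1 at 0.28. All profiles share the same 6 arrays, and ranks among so many genes over so few points are a description only.

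For the proteases that stefins block, log2 differences lay between -0.58 and 0.54. All 10 cysteine cathepsins on the list were measured, 5 with a higher and 5 with a lower mean in null samples. None passed the adjusted threshold by limma, and 1 in each direction had an unadjusted p under 0.05. Of all genes tested, 5.76% were higher and 3.25% lower in null samples at that unadjusted level. The median log2 difference of the cathepsins was 0.01, against 0.02 for all genes tested. The list was chosen with earlier results of these data known.

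Ctss, cathepsin S of microglia and other antigen-presenting cells, had a signal of 2907%, 2576% and 2933% in null replicates 1, 2 and 3, against 1659%, 2568% and 2081% in wild-type replicates 1, 2 and 3. The groups were barely apart at null replicate 2 and wild-type replicate 2, and the log2 difference of 0.44 (SE 0.17, adjusted p = 0.543 by limma) was 0.12 on slide 1 alone. Ctso, a lysosomal cathepsin, was lower in null samples by -0.32 on the log2 scale (SE 0.12, adjusted p = 0.543 by limma), with overlapping groups. The differences were 0.03 for Ctsb, -0.003 for Ctsl, -0.006 for Ctsh and -0.02 for Ctsf, all broadly acting lysosomal proteases. Ctsz, a carboxypeptidase, differed by 0.07, and Ctsc, which activates granule serine proteases, by 0.39. Ctsk, the bone-resorbing cathepsin of osteoclasts, differed by -0.58, and Ctsw, a cathepsin of cytotoxic lymphocytes, by 0.54. Adjusted p for these 8 ran from 0.555 to 0.996 by limma.

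**Figure D3:**
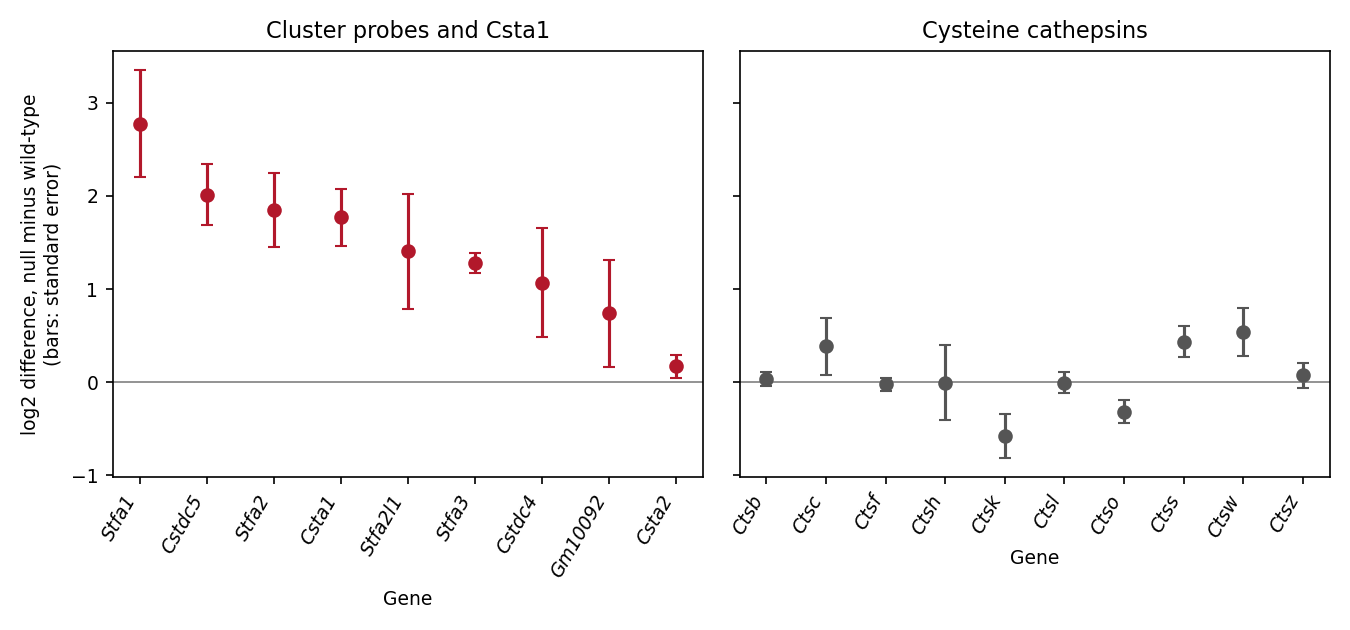
Log2 difference between Dhtkd1 null and wild-type samples with its standard error (3 samples per genotype) for the 8 detected member probes with Csta1 (left) and for the 10 cysteine cathepsins (right). The cluster probes reach 2.77, and the cathepsins lie between -0.58 and 0.54. The second Csta1 probe, at 1.15 with overlapping groups, is not drawn. Signals of different probes are not compared.

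Among the other cystatin family genes, 11 of 16 with a probe were measured, Csta1 among them, and Csta2 was counted with the cluster. None passed the adjusted threshold by limma, 2 had a higher signal in null samples at an unadjusted p under 0.05 (Csta1 and Cst7) and 0 a lower one, and the median log2 difference was -0.01. Of all genes tested, 5.76% were higher and 3.25% lower in null samples at that unadjusted level. Cst7, cystatin F of myeloid and cytotoxic cells, had 5.78%, 9.88% and 4.34% in null replicates 1, 2 and 3, against 2.22%, 4.996% and 2.44% in wild-type replicates 1, 2 and 3. Its groups overlapped, and the log2 difference of 1.07 (SE 0.43, adjusted p = 0.549 by limma) was 0.33 on slide 1 alone. Cst3, the abundant secreted cystatin C, differed by -0.08 (SE 0.06, adjusted p = 0.719 by limma), and Cstb, the stefin B gene, by -0.02, with overlapping groups.

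Since stefin A genes are known in neutrophils, genes of neutrophils and their granules were set beside the cluster. All 19 of those measured had a higher mean in null samples, and none passed the adjusted threshold by limma. An unadjusted p under 0.05 was reached by 5 (Lcn2, Pglyrp1, Ctsg, Prtn3 and Csf3r), against 5.76% of all genes tested that were higher at this level. The groups of these 5 did not overlap, and all null samples lay above all wild-type samples in 9.18% of all genes tested. The median log2 difference of the list was 1.14, also 1.14 on slide 1 alone, and no gene of the list was without an array well above background. The summed signal ran from 4770.5% to 18183% in null samples and from 3120.2% to 6777% in wild-type samples, so the groups overlapped. S100a9 made up most of each sum. The mean centred signal of the list was 0.73, 1.46 and -0.36 in null replicates 1, 2 and 3, against -0.11, -0.56 and -1.17 in wild-type replicates 1, 2 and 3. Null replicate 3 was thus below wild-type replicate 1 in this list, while for the mean of the cluster it stayed above. Among the detected members it was below at Stfa2l1, Cstdc4, Gm10092 and Csta2 and above at Stfa1, Stfa2, Stfa3 and Cstdc5. Because the cluster was selected on null against wild-type in these arrays, nothing is read from this contrast. The part of neutrophil RNA in the stefin signal was not tested.

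Lcn2, a siderophore-binding granule protein that astrocytes and other cells can also make, had 65.8%, 168% and 136% in null replicates 1, 2 and 3, against 36.3%, 21.0% and 16.5% in wild-type replicates 1, 2 and 3. Its log2 difference was 2.30 (SE 0.44, adjusted p = 0.342 by limma), without overlap. Pglyrp1, a peptidoglycan-binding granule protein, differed by 1.14 (SE 0.25, adjusted p = 0.400 by limma), also without overlap. S100a9, a calprotectin subunit, had 8437%, 11995% and 3192% in null replicates 1, 2 and 3, against 4785%, 3013% and 2199% in wild-type replicates 1, 2 and 3. Its groups overlapped at null replicate 3, with a log2 difference of 1.12 (SE 0.55, adjusted p = 0.597 by limma).

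**Figure D4:**
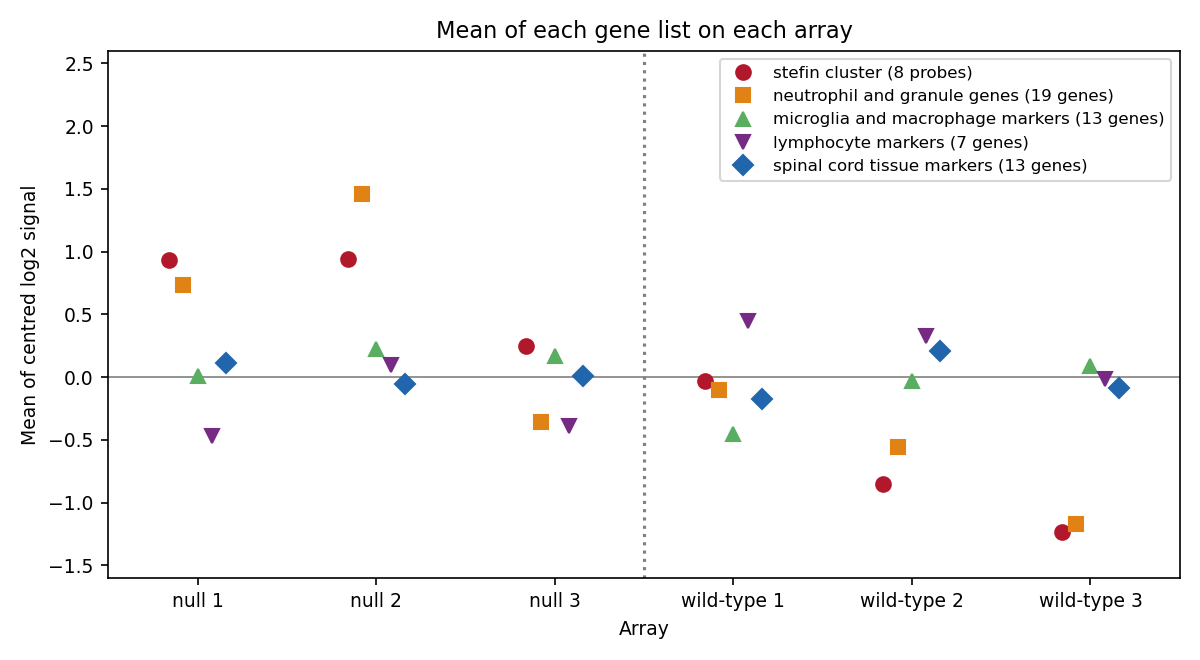
Mean centred log2 signal (y axis) of the 8 detected stefin cluster probes and of 4 marker lists on each array (x axis), null arrays left of wild-type arrays. The cluster and the neutrophil list both have their highest values on null replicates 1 and 2 and their lowest on wild-type replicate 3, and the spinal cord list stays between -0.18 and 0.21.

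Other cell types were checked in the same way, and their part in the stefin signal was not tested. Of 13 microglia and macrophage markers, 12 had a higher mean in null samples, with a median log2 difference of 0.18 and 0.08 on slide 1 alone. An unadjusted p under 0.05 was reached by 4, all higher in null samples, among them Fcrls at 0.82 and C1qb, a complement subunit, at 0.58. Of all genes tested, 5.76% were higher at this level. The summed signal of the list in null samples was 3614% to 4028%, against 2437% to 3768% in wild-type samples. Of 8 keratinocyte markers measured, 7 had a higher mean in null samples, with a median of 0.20, and Ivl and Dsg1a, both epidermal genes, were above background on no array. Trp63, a transcription factor of basal keratinocytes, differed by 0.31 and Lor, a cornified envelope protein, by 0.21. Null replicate 3 stood apart at Krt5 and Krt14. At the other keratinocyte markers measured it lay within or close to the range of the other samples. Krt5, a basal keratin chosen here after its values were seen, had 1.99%, 5.26% and 103.05% in null replicates 1, 2 and 3, against 2.16% to 3.16% in wild-type samples. Its partner keratin Krt14, chosen likewise, had 6.78%, 6.88% and 21.8% in null replicates 1, 2 and 3, against 4.998% to 6.77% in wild-type samples. The summed signal in null samples was 592% to 740%, against 533% to 628% in wild-type samples. The 7 lymphocyte markers measured had a median of -0.05, with sums in null samples of 18.7% to 28.9%, against 23.3% to 37.2% in wild-type samples. Tnfrsf17, a plasma cell receptor, differed by -1.20, and Ms4a1 and Cd79b of B cells by -2.03 and -0.80. Tnfrsf17 and Ms4a1 were well above background on 1 null array each. The 5 red blood cell markers measured had a median of 0.72 and 1.01 on slide 1 alone, with sums in null samples of 5230% to 8217%, against 3636% to 7006% in wild-type samples. Hba-a1 made up most of each sum. The mean centred signal of these markers was 0.47, 0.51 and -0.06 in null replicates 1, 2 and 3. In wild-type replicates 1, 2 and 3 it was 0.41, -0.77 and -0.56. Alas2, the heme synthesis enzyme of red cell precursors, differed by 0.72, the anion exchanger Slc4a1 by 0.75 and the globin gene Hba-a1 by 0.17. Adipocyte markers had a median of 0.70 over all arrays and of -0.74 on slide 1 alone, with Ucp1 at 1.78, Retn at 0.70 and Cidea at 0.03. Leaving out 1 sample gave 0.93 to 2.84 for Ucp1 and 0.12 to 1.42 for Retn. Skeletal muscle markers had a median of 0.67 and of -0.74 on slide 1 alone, with Ckm at 0.89 and Myh4 at 0.79. Without wild-type replicate 3 these were 0.14 and 0.06, and without wild-type replicate 2 they were 1.59 and 1.41. Peripheral myelin markers had a median of -0.66 and of 0.81 on slide 1 alone, with Pmp22 at -0.77. Pmp2 was well above background on none of the null arrays. Over all 6 arrays its mean signal was at least 5.21-fold lower in null samples (adjusted p = 0.447 by limma). For this bound, null signals under the lowest one called above background were raised to it. The bound does not hold on slide 1 alone, where the log2 difference was -1.40. Pmp2 had 13.7% in wild-type replicate 1, against 2.15% and 4.51% in wild-type replicates 2 and 3. The summed signal of the list in null samples was 1770% to 4173%, against 11367%, 2443% and 3855% in wild-type replicates 1, 2 and 3, so wild-type replicate 1 stood apart. That sample was also the highest wild-type sample at most stefin probes. Pmp22 made up most of each peripheral myelin sum. The labelled tissue showed its markers, since all 13 genes of neurons, oligodendrocytes and astrocytes were measured, with a median of -0.02. In that list Aqp4, an astrocyte water channel, differed by -0.33, the synaptic gene Syt1 by 0.37 and the myelin gene Mbp by -0.05. No gene of these lists passed the adjusted threshold by limma.

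The upstream sequences of the cluster genes were compared because several of their probes differed together. Of 32851 RefSeq promoters of 300 bases (build GRCm38.p6, from 250 before to 50 after each gene start), those of Stfa1, Stfa2, Stfa3, Stfa2l1, Cstdc4 and Cstdc5 all held the run ACCTTTAAAACCC. The run, of 13 bases, was chosen because none longer is shared by the promoters of these 6 genes. The 6 are the members at least 2-fold higher in null samples, so the run's presence in all 6 was fixed by that choice. It is held by 0.0274% of all promoters on either strand, or 9 promoters, all of them in the cluster. Besides the 6, these are the promoters of Csta3, of Gm7260 and of the second annotated start of Cstdc3. Cstdc3, a member that carries the run, was well above background on none of the null arrays, so the run does not mark the members higher in null samples. Another run of 13 bases, not shown here, was equally long and also shared by all 6. That other run is held by 0.0304% of all promoters, or 10 promoters, 9 of them in the cluster. In the best local alignment, the Stfa1 promoter was identical to that of Cstdc5 at 96.4% of aligned bases, to that of Stfa3 at 85.0% and to that of Stfa2 at 81.4%. The 100 bases before the annotated gene start are shown for 5 of these genes, with the shared run in capitals.
Stfa1: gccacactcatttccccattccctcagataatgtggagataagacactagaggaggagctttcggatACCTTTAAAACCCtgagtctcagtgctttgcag
Stfa3: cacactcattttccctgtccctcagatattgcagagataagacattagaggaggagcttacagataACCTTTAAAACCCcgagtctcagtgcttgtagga
Cstdc4: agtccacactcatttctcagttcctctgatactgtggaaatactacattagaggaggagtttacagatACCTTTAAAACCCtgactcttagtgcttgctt
Stfa2: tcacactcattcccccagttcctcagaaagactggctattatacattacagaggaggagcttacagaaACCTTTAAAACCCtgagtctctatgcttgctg
Stfa2l1: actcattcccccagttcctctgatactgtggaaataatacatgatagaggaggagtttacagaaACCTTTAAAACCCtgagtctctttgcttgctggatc

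On GRCm38.p6 these windows are chr16:36277048-36277147 (plus strand) for Stfa1, chr16:36455393-36455492 (minus strand) for Stfa3, chr16:36184112-36184211 (plus strand) for Cstdc4, chr16:36408364-36408463 (minus strand) for Stfa2 and chr16:36156711-36156810 (plus strand) for Stfa2l1. The run begins 32 to 36 bases before the annotated start in these 5 genes and 12 bases before it in Cstdc5. It was found neither in the Csta2 promoter, whose gene differed by 0.17, nor in the Csta1 promoter, whose gene differed by 1.77. Each promoter was set by its annotated start, so a run outside it would be missed. The Csta1 promoter ends at letters that stand just before the run in Stfa2l1 and Cstdc4. That of Csta2 aligned with that of Stfa1 over only 28 bases. Nothing is therefore read from these absences. The letters TATAAA, which 13.6% of all promoters hold, were found in none of the 12 promoters of the cluster, those of Csta1 and of genes with no probe of their own included. The letters TTGCNNAA, a motif of the C/EBP factors of myeloid cells, were in 4 of the 12 and in 10.8% of all promoters. The 4 are those of Stfa1, Cstdc5, Csta3, which has no probe of its name, and the second annotated start of Cstdc3. The Cstdc3 probe was well above background on none of the null arrays. GAGGAAGT, a PU.1 motif, was in none of the 12 and in 3.20% of all promoters. Both strands were searched, and a match is a run of letters and not a shown binding site.

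The arrays were of like quality. Their 75th percentiles lay between 918 and 1032 intensity units, 78.4% to 82.0% of spots were well above background, and pairs of arrays correlated at 0.983 to 0.991 across genes. Wild-type replicate 3 had the lowest 75th percentile and the lowest share of spots above background. That array was also the lowest wild-type sample at 8 of the 9 stefin probes, and whether these are linked was not tested. Dhtkd1 itself was lower in the 3 null samples than in the 3 wild-type samples at both of its probes on chromosome 2. At chr2:5817910-5817969 (minus strand) the signal was 6.17%, 6.20% and 5.73% in null replicates 1, 2 and 3, against 13.6%, 12.6% and 12.1% in wild-type replicates 1, 2 and 3. Both probes stayed well above background in null samples, and whether either lies in the deleted part is not given in the sources used here.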

How the data were processed

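The stefin genes and all gene lists were chosen with earlier results of these data known. The deposited scanner files hold spot intensity from Agilent Feature Extraction 10.7.3.1 (design 014868, mm9), background-subtracted and detrended within each array per the file headers, with surrogate values for signals not above background. The authors also deposited a table of log2 values, whose method is not given in the sources used here. Its columns follow the log2 processed intensity of their arrays, and it served as an alternative.

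Signal was log2 processed intensity minus the 75th percentile over the array's probes. Outlier spots (58 to 89 per array) were left out, and spots of a probe were averaged. A probe was kept when well above background on at least 3 of 6 arrays, and the kept probe of highest mean represented its gene, which left 21439 genes. Null minus wild-type was fitted with limma 3.58.1 (R 4.3.3, lmFit and eBayes, 2-sided) and adjusted by Benjamini-Hochberg over all genes, after a check on simulated data. An exact permutation test of 3 against 3 arrays cannot go below 0.1. The number of arrays limits the precision. Symbols came from the RefSeq table of GRCm38.p6 (27660 probes by accession), and Gm10092 from the description in the files. From each list the text names the 2 genes of smallest p and the one of highest signal, and all cysteine cathepsins, except 1 marker gene that is not reported here. Samples sharing a replicate number deviated from their group means with correlations of -0.02, -0.11 and 0.33, so the numbers were not taken as pairs.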

Additional observations from a re-analysis of the deposited data

How the results depend on the processing

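Stfa1, Stfa2, Stfa3, Stfa2l1, Cstdc5, Cstdc4, Gm10092 and Csta2 stayed higher in null samples under each of 16 or 17 alternatives, with Stfa1 at 1.02 to 3.39 on the log2 scale, Stfa2 at 0.52 to 2.20 and Stfa3 at 0.38 to 1.37. The alternatives are not separate checks, since several leave these values as they were. Stfa1 stayed at 2.77 with no filter, with outlier spots kept and with a replicate block. It was at 3.04 both on slide 1 alone and with slide as a fixed block. The genes were also selected on this contrast, so nothing is read from the count. With normexp background correction (offset 50), which compresses dim signals, Stfa1 was at 1.02, Stfa2 at 0.52, Stfa3 at 0.38, Cstdc5 at 1.02, Csta1 at 1.14 and its second probe at 0.06. The median of the 5 clone-named probes, with Cstdc3 and its surrogate values as the lowest, was 0.74, and 0.17 to 1.29 under the alternatives. Leaving out each sample in turn gave 2.29 to 3.39 for Stfa1, 1.65 to 2.20 for Stfa2, 1.21 to 1.37 for Stfa3, 0.88 to 1.86 for Stfa2l1, 1.76 to 2.36 for Cstdc5, 0.65 to 1.54 for Cstdc4, 0.34 to 1.29 for Gm10092 and 0.08 to 0.28 for Csta2. Stfa1, Stfa2 and Gm10092 were not well above background on all 6 arrays and have no value under the filter that asks for this, and Stfa1, Stfa2 and Stfa3 had no second probe. Past the adjusted threshold were 0 genes by limma, 1 with quantile normalization, median centring, normexp, the authors' deposited table or the 6-array filter, 3 with trend and robust options, and 0 to 2 when 1 sample was left out. The lists of cathepsins, other cystatins and neutrophil genes held none of these under any setting run. At least 2-fold apart at an unadjusted p under 0.05 were 144 genes, against 42 with normexp, 266 with no filter, 245 with slide as a block, 251 on slide 1 alone and 139 to 228 when 1 sample was left out. There were 228 when wild-type replicate 2 was dropped and 222 when null replicate 1 was. The split into higher and lower in null samples was 101 and 43, but 121 and 124 with slide as a block, 130 and 121 on slide 1 alone. With a replicate block there were 185 such genes and 0 past the adjusted threshold, and the log2 differences of the stefin genes were the same. Signs turned for several list genes, from 1.78 for Ucp1, 0.89 for Ckm, 0.79 for Myh4 and -0.77 for Pmp22 and from near 0 for the others. Ctsb was at -0.078, Ctsl at 0.017, Ctsh at 0.28, Cidea at -0.37, Ucp1 at -0.34, Ckm at -0.51, Myh4 at -0.44 and Pmp22 at 0.15 on slide 1 alone or with slide as a block. Ctsh was at 0.0013 with quantile normalization and 0.0017 in the authors' deposited table. Leaving out 1 sample gave -0.011 to 0.086 for Ctsb, -0.052 to 0.010 for Ctsf, -0.25 to 0.39 for Ctsh, -0.091 to 0.065 for Ctsl, -0.033 to 0.19 for Ctsz, -0.17 to 0.23 for Cidea and -0.12 to 0.36 for Hba-a1. The causes were not tested.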
